A study of Mus musculus with 18 samples.

Results

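Acute colitis was profiled in 2 mouse lines in which a gene of the IL-36 cluster was targeted, and the changes described here are those that the knockout (KO) mice of both lines had in common against their own wild-type (WT) mice. Of the 18 RNA libraries of the study, 10 belong to this comparison. They are 3 libraries labelled Il1f5 KO (Il1f5-/-) and 2 Il1f9 KO libraries (Il1f9-/-), set against 3 Il1f5 WT libraries (Il1f5+/+) and 2 Il1f9 WT libraries (Il1f9+/+). All mice are labelled C57BL/6, and every mouse, KO or WT, drank 2.5% dextran sulfate sodium (DSS) for 5 days and plain water for 2 days, so no uninjured colon is among the groups. DSS is a sulfated polymer that breaks the epithelial barrier of the colon. Each sample was a 0.5 cm piece of distal colon tissue near the anus, not a sorted cell type. The study's design counts as many mice as libraries in each group. Age, the way the alleles were made and the kinship of KO and WT mice are not given in the labels. The remaining 8 libraries, 4 KO and 4 WT, came from azoxymethane and DSS tumours of the same lines and are used below only beside the colitis values.

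IL-36 gamma, the product of Il1f9 (also called Il36g), is a cytokine of the IL-1 family. It binds a receptor made of Il1rl2 and Il1rap and signals through MyD88 to NF-kappa-B. The product of Il1f5 (also called Il36rn) is the IL-36 receptor antagonist, which occupies the same receptor without signalling. The targeted genes therefore encode an agonist and an antagonist of a single pathway, one that epithelium, fibroblasts and immune cells of the injured gut are known to use.

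Expression is given in CPM, the count of a gene scaled to a common library depth. The libraries held 16621611 to 23776174 counts each. Per-library values are listed in a fixed order, replicates 1, 2 and 3 of the Il1f5 line and then replicates 1 and 2 of the Il1f9 line. Log2 fold changes are KO over WT with their standard error, from an edgeR quasi-likelihood fit with line as a covariate, and p-values were adjusted over all 18299 genes tested. Gene coordinates are those of the deposited table, which names no build. A gene was called at an adjusted p under 0.05, and a gene was counted as shared when it was called in this pooled fit and also, in the same direction, in each line on its own. In bulk tissue, fewer cells of a type and less RNA per cell cannot be told apart.

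The targeted genes were looked at first. Il1f9 (ENSMUSG00000044103, chromosome 2, 24186476 to 24193568) had 0.543 and 0.0507 CPM in Il1f9 KO libraries, against 11.9 and 4.53 CPM in Il1f9 WT libraries. Il1f5 (ENSMUSG00000026983, chromosome 2, 24276954 to 24283426) went against its label. It had 36, 43 and 45 counts in the libraries labelled Il1f5 KO and 0 counts in each of the 7 other colitis libraries, WT libraries of the same line included. The tumours showed the same conflict, with 9.61 and 5.24 CPM of Il1f5 in tumours labelled Il1f5 KO and 0 in both Il1f5 WT tumours. Both the direction of a change in the Il1f5 line and which genes count as shared therefore rest on the labels as given, and the KO groups are called libraries labelled KO. As a check of the tissue label, Cdx2, a transcription factor of gut epithelium, had 249 to 391.7 CPM in libraries labelled KO and 281 to 344 CPM in WT libraries.

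The pooled fit called 1144 of 18299 genes (6.25%), 500 higher (2.73%) and 644 lower (3.52%) in libraries labelled KO. Each line alone gave far more calls, 4516 genes (24.7%) in the Il1f5 line and 3581 genes (19.6%) in the Il1f9 line. They were 2501 higher (13.7%) and 2015 lower (11%) in libraries labelled Il1f5 KO, and 1754 higher (9.59%) and 1827 lower (9.98%) in Il1f9 KO libraries. Most of these were not held in common. Of 1038 genes called in both lines, 462 changed in the same direction, which is 10.2% of the Il1f5 calls and 12.9% of the Il1f9 calls. The other 576 changed in opposite directions, 341 of them higher in libraries labelled Il1f5 KO and lower in Il1f9 KO libraries, and 235 the reverse. Were the KO and WT labels of the Il1f5 line exchanged, these 576 would be the genes that changed alike, and the 462, GTPases and smooth muscle genes among them, would be opposed. Across all genes the log2 fold changes of both lines had a Pearson r of -0.0043 and a Spearman rho of -0.079, given as a description since genes are not independent replicates.

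Against this background 460 genes (2.51%) were shared, 169 higher (0.924%) and 291 lower (1.59%) in libraries labelled KO. In all 460 the KO and WT libraries did not overlap within either line. The call required in each line largely brings this about, so it adds no support. In 399 of them all 5 libraries labelled KO lay on the same side of all 5 WT libraries, a state that 7.59% of all tested genes had. The shared calls were made on the same libraries and favour this state, so it adds no support either. The effect of 45 shared genes also differed in size between lines. The count was sensitive to single libraries. It was 157 without Il1f9 KO 1, 285 without Il1f9 KO 2, 241 without Il1f9 WT 1, 220 without Il1f5 WT 1, 237 without Il1f5 WT 2 and 294 without Il1f5 WT 3, and 96 genes, 26 higher and 70 lower, were shared in each of the 10 fits that left out 1 library. The pooled count was 372 without Il1f9 KO 1, 480 without Il1f9 WT 1, 375, 471 and 446 without Il1f5 WT 1, 2 or 3, 659, 591 and 631 without Il1f5 KO 1, 2 or 3, and 1641 without Il1f9 WT 2, and DESeq2 called 2489 genes in the pooled design.

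**Figure D1:**
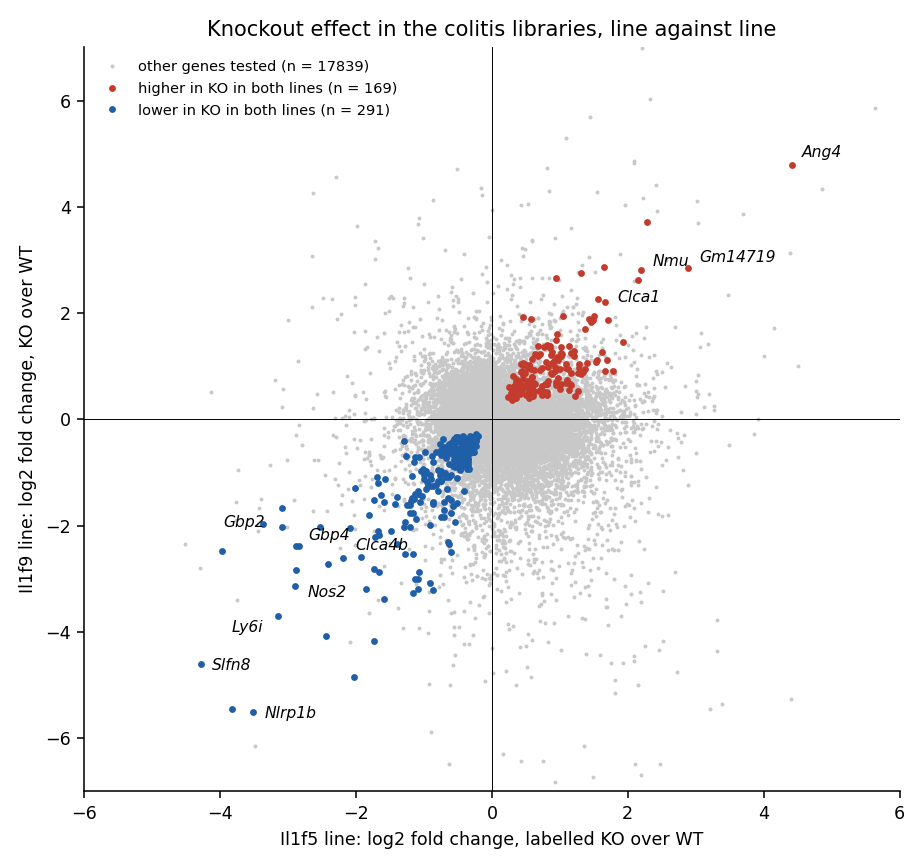
Log2 fold changes of KO over WT in the Il1f9 line (vertical) against the libraries labelled KO over WT in the Il1f5 line (horizontal) for the 18299 tested genes, one point each, with 16 genes outside the axes. The 169 shared genes higher in libraries labelled KO sit at the upper right and the 291 lower ones at the lower left, with Ang4 and Slfn8 near the ends, while the other genes form a round cloud.

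A shared fall was seen among the interferon-induced GTPases, proteins of the guanylate-binding (Gbp) and immunity-related GTPase families that attack vacuoles of intracellular microbes and are induced mainly by interferon gamma. Over all genes tested, 3.52% fell in the pooled fit and 1.59% in both lines. Of 17 genes of the list, 13 fell in the pooled fit, 0 rose and 4 did not pass, and 9 fell in each line (Gbp2, Gbp4, Gbp5, Gbp6, Gbp7, Gbp8, Gbp9, Tgtp1 and Tgtp2). Their median log2 fold change was -1.86 pooled, -2.06 in the Il1f5 line and -1.59 in the Il1f9 line, against 0.0075, -0.0085 and -0.0086 over all genes tested. In 16 of the 17 the fold change was negative in both lines, which 23.7% of all tested genes showed.

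Promoter sequences of shared members are shown because they hold matches to an element known to answer interferon. RefSeq promoters of build GRCm38.p6 run from 250 bases before to 50 bases after a gene's start and were found for 10 of the 17 GTPase genes. Each is written 5′ to 3′ on the gene's strand, and capitals mark a match to the core of the interferon-stimulated response element, GAAANNGAAA, on either strand.
Gbp2 promoter, chr3:142620413-142620712, plus strand: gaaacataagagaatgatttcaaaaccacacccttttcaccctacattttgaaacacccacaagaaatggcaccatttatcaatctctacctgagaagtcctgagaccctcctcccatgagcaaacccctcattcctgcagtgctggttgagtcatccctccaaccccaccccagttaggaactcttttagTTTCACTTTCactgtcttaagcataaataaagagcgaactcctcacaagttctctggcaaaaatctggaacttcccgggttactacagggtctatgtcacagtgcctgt
Gbp5 promoter, chr3:142496684-142496983, plus strand: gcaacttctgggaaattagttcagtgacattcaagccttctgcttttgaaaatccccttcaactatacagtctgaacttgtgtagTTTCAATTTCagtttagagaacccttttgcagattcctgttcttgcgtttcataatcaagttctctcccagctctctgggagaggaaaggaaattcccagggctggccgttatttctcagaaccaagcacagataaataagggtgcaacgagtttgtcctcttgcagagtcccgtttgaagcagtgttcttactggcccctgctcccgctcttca
Gbp7 promoter, chr3:142530086-142530385, plus strand: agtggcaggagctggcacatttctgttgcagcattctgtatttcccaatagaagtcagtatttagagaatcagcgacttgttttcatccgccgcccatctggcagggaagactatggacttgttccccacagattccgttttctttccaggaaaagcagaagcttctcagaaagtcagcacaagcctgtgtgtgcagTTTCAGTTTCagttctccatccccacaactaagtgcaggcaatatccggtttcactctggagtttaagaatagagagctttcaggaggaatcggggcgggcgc
Tgtp2 promoter, chr11:49064163-49064462, minus strand: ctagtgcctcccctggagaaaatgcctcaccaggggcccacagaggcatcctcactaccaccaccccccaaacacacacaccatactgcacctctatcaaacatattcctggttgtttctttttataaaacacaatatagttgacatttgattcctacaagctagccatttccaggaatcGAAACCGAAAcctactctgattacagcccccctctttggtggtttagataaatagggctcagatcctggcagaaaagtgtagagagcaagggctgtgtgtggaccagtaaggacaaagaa
The core occurred in 9 of the 10 GTPase promoters, against 493 of 12465 genes tested that had a promoter (3.955%). Gbp3, Irgm1 and Irgm2, which were not called in the pooled fit, were among the 9, and Ifi47, not called either, lacked it. A match thus did not mark called members of the list alone. Among the shared genes the core occurred in 23 of 213 promoters of genes that were lower (10.8%) and in 2 of 124 of genes that were higher (1.613%). Without the GTPase list, 18 of 208 promoters of shared lower genes held it (8.654%). Of the smooth muscle markers, a list that rose, 2 of 12 promoters held it (16.67%). The palindromic STAT site TTCNNNGAA, which can share bases with the first motif, was in 6 of the 10 GTPase promoters, in 12.68% of promoters of shared lower genes, in 8.871% of those of shared higher genes and in 8.52% of all. A match describes the letters only and is not a bound site.

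Gbp2 (ENSMUSG00000028270, chromosome 3, 142620602 to 142638008), whose promoter heads the set above, had 42.6, 32.8, 66.1, 50.4 and 42.2 CPM in the libraries labelled KO, against 382, 309, 518, 199 and 94.5 CPM in WT libraries. All 5 libraries labelled KO were below the lowest WT library, Il1f9 WT 2, and the WT libraries of the Il1f5 line were the highest. Its log2 fold change was -2.53 ± 0.35 (adjusted p = 0.00607), -3.096 in the Il1f5 line and -1.67 in the Il1f9 line. Gbp4 (ENSMUSG00000079363, chromosome 5, 105115767 to 105139586) had 15.8, 7.97, 18.7, 13.5 and 9.32 CPM in the libraries labelled KO, against 96.7, 92.1, 122, 72.9 and 45.8 CPM in WT libraries, again with no overlap. The fold change of Gbp4 was -2.68 ± 0.25 (adjusted p = 0.000963) and lay close together in both lines, -2.88 in the Il1f5 line and -2.38 in the Il1f9 line.

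Gbp5, which also promotes inflammasome assembly, had 25.4, 26.05, 21.99, 14.8 and 7.04 CPM in the libraries labelled KO, against 83.1, 71.6, 125, 78.3 and 51.7 CPM in WT libraries. Its fold change was -1.93 in the Il1f5 line and -2.58 in the Il1f9 line, and the difference between lines was not called (adjusted p = 0.359). Gbp9 had 19.8, 15.7, 22.6, 11.7 and 8.61 CPM in the libraries labelled KO, against 56.4, 34.96, 64.6, 31.1 and 29.7 CPM in WT libraries, with a log2 fold change of -1.49 ± 0.18 (adjusted p = 0.00265). Gbp5 and Gbp9 stayed shared in all 10 fits that left out 1 library, and Gbp4 in 9. Gbp6 and Tgtp2 did so in 7, Gbp8 in 6, Gbp2 in 4, Tgtp1 in 3 and Gbp7 in 2. Tgtp1 and Tgtp2, near-identical neighbours on chromosome 11 between which reads can be split, had 1.79 to 6.48 CPM in libraries labelled KO and 9.16 to 40.03 CPM in WT libraries for Tgtp1 and 3.19 to 9.25 CPM in libraries labelled KO and 15.5 to 47.0 CPM in WT libraries for Tgtp2. Gbp6 and Gbp10 are likewise close copies, and Gbp6 had 2.64 to 8.57 CPM in libraries labelled KO and 10.5 to 24.5 CPM in WT libraries.

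Of the GTPases that fell in the pooled fit but not in each line, Iigp1 had 34.5, 25.7, 78.1, 38.3 and 31.9 CPM in the libraries labelled KO, against 327, 224, 304, 142 and 88.9 CPM in WT libraries. The log2 fold change of Iigp1 was -2.27 ± 0.33 (adjusted p = 0.00717), and in the Il1f9 line alone it was -1.72 with an adjusted p of 0.0659. Igtp, Gbp10 and Gm4951 were the others of this kind, with log2 fold changes of -1.55 ± 0.39, -3.83 ± 0.63 and -1.86 ± 0.32. The 4 that did not pass were Gbp3 (-1.25 ± 0.36), Irgm1 (-0.84 ± 0.34), Irgm2 (-0.91 ± 0.26) and Ifi47 (-0.71 ± 0.31). No GTPase was called for a difference between lines. The count of 9 shared GTPases was 2 without Il1f9 KO 2, 3 without Il1f9 WT 1, 4 without Il1f9 KO 1, 5 without Il1f9 WT 2 and 4 without a filter on low counts, and leaving out an Il1f9 library leaves that group with a single one.

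**Figure D2:**
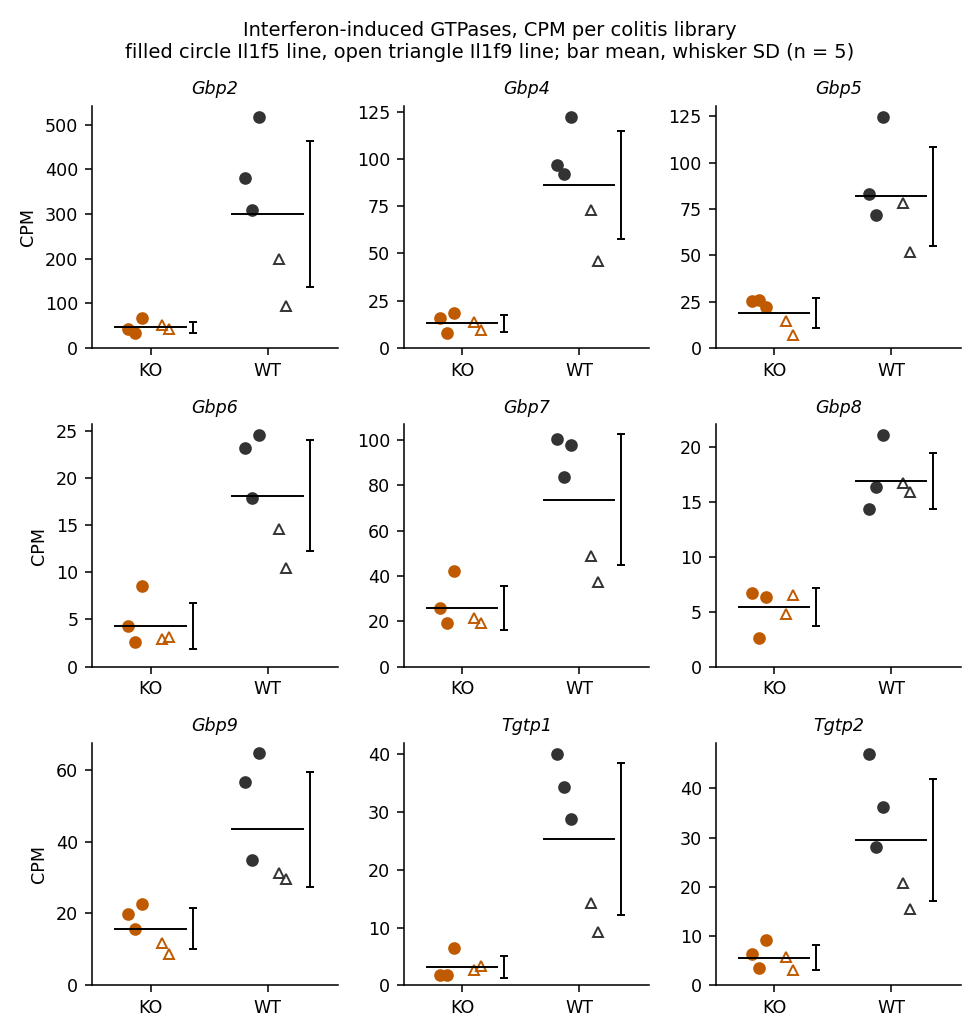
CPM of the 9 interferon-induced GTPases that fell in both lines, one panel per gene with its own axis from 0, libraries labelled KO left and WT right. Filled circles are the Il1f5 line and open triangles the Il1f9 line, bars are means and whiskers SD of 5 libraries. In every panel except that of Gbp7 the 5 libraries labelled KO lie below all 5 WT libraries.

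The wider interferon gamma axis was also lower. Of 14 genes, 9 fell, 0 rose and 5 did not pass in the pooled fit, which called 3.52% of all genes tested lower. In both lines 11 had a negative fold change, which 23.7% of all tested genes showed. The median was -1.35 pooled, -1.85 in the Il1f5 line and -0.77 in the Il1f9 line. None was shared, as 11 were called lower in the Il1f5 line and 1 in the Il1f9 line. Ifng, the cytokine itself, was scarce, with 0.217, 0.0498, 0.507, 0.422 and 0.304 CPM in the libraries labelled KO, against 2.63, 2.15, 5.6, 2.21 and 0.503 CPM in WT libraries. All libraries labelled KO but Il1f5 KO 3 lay below Il1f9 WT 2, the lowest WT library. Cxcl9, a chemokine that draws T cells, had 2.06, 1.34, 10.7, 6.27 and 4.21 CPM in the libraries labelled KO, against 41.1, 53.9, 93.1, 78.5 and 32.1 CPM in WT libraries. The values of Cxcl9 did not overlap, with a log2 fold change of -3.61 ± 0.55 (adjusted p = 0.00791), and in the Il1f9 line its adjusted p was 0.056. Cxcl10 had 4.93 to 20.7 CPM in libraries labelled KO and 33.5 to 124 CPM in WT libraries, and Ido1, a tryptophan-degrading enzyme, had 4.73 to 25.3 CPM in libraries labelled KO and 21.1 to 222 CPM in WT libraries with overlap. Ciita, which switches on MHC class II, fell by a log2 fold change of -0.87 ± 0.204 (adjusted p = 0.0353), while 0 of 9 genes encoding MHC class II were called in the pooled fit. In the Il1f5 line 6 of the 9 were called lower and in the Il1f9 line 0, with medians of -0.75 and 0.073 in that order.

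Genes of the type I interferon response were mostly not called. Of 25, 1 rose, 1 fell and 23 did not pass, 0 were shared, and the median was -0.06 pooled, -0.37 in the Il1f5 line and 0.47 in the Il1f9 line. T and NK cell markers, whose cells are the main source of interferon gamma, gave 0 pooled calls of 19. Their summed level ran from 47.7 to 111 CPM in libraries labelled KO and from 41.2 to 121 CPM in WT libraries, and no member was at 0 in all libraries. The part of these cells in the fall of the GTPases was not tested.

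Several of the steepest shared falls lay in gene clusters on chromosome 11. Nlrp1b (ENSMUSG00000070390, chromosome 11, 71153102 to 71230733), a sensor that starts inflammasome assembly when proteases cleave it, had 1.52, 1.1, 1.52, 0.422 and 0.355 CPM in the libraries labelled KO, against 15.1, 14.7, 17.6, 19.6 and 16.0 CPM in WT libraries. Every library labelled KO was far below the lowest WT library, and the Il1f9 KO libraries were the lowest. The log2 fold change was -4.16 ± 0.34 (adjusted p = 0.000415). It fell in both lines and by more in the Il1f9 line, -3.52 in the Il1f5 line and -5.501 in the Il1f9 line (difference -1.98 ± 0.35, adjusted p = 0.00326). Its neighbours had few counts. Nlrp1a had 1 count over the 5 libraries labelled KO, against 81 counts over the 5 WT libraries, which is 77.0-fold higher in WT with a 95% exact counting interval of 13.4 to 3077. Nlrp1c-ps, a pseudogene of the cluster, had 0 counts against 52, at least 16.5-fold lower in libraries labelled KO when 0 is read as 3 counts over the group. The fitted log2 fold change of Nlrp1a, which depends on the prior count, was -5.55, and -7.04 without Il1f5 KO 2, the library that held its single count. Nlrp1 genes are close copies, so reads may be split among them, and these intervals cover counting error only.

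Slfn8 (ENSMUSG00000035208, chromosome 11, 83002158 to 83020810), a Schlafen gene of the same chromosome that is expressed in immune cells, had 0.813, 0.249, 1.01, 0.362 and 0.405 CPM in the libraries labelled KO, against 15.5, 11.8, 13.03, 10.4 and 8.65 CPM in WT libraries. Its groups were far apart, with a log2 fold change of -4.398 ± 0.29 (adjusted p = 0.000397), -4.29 in the Il1f5 line and -4.61 in the Il1f9 line. Of 8 Schlafen genes tested, Slfn8, Slfn9 and Slfn10-ps fell in the pooled fit and Slfn8 alone was shared. Its close copy Slfn9 had 11.9, 7.27, 20.5, 10.1 and 15.9 CPM in the libraries labelled KO, against 82.6, 74.8, 59.6, 32.7 and 21.3 CPM in WT libraries, and in the Il1f9 line its change was -1.05 with an adjusted p of 0.155. Of the 8, 7 had a negative fold change in both lines, which 23.7% of all tested genes showed. The median was -1.06 pooled, -0.64 in the Il1f5 line and -1.44 in the Il1f9 line. Among members not called, Slfn4 had a log2 fold change of -0.42 ± 0.41 (adjusted p = 0.567) and Slfn5 one of -0.27 ± 0.302 (adjusted p = 0.624). The neighbouring transcript 1190001M18Rik, named after its values were seen, had 2 counts over the libraries labelled KO against 45 over the WT libraries. Chromosome 11 as a whole held 47 shared genes of 1427 tested (3.29%), against 2.51% over all chromosomes, and chromosome 12 had 3.44%.

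Nos2 (ENSMUSG00000020826, chromosome 11, 78920787 to 78960254), the inducible nitric oxide synthase, had 62.1, 54.3, 57.9, 23.6 and 34.6 CPM in the libraries labelled KO, against 208, 215, 208, 357 and 177 CPM in WT libraries. All 5 libraries labelled KO were below every WT library, and Il1f9 WT 1 was the highest of all. The log2 fold change was -2.38 ± 0.29 (adjusted p = 0.00303), and it was larger in the Il1f9 line, -1.86 in the Il1f5 line and -3.197 in the Il1f9 line (difference adjusted p = 0.0331). Tnf (ENSMUSG00000024401, chromosome 17, 35199381 to 35202007), the cytokine blocked in treatment of bowel inflammation, had 6.99, 9.06, 10.5, 3.98 and 5.37 CPM in the libraries labelled KO, against 15.8, 21.8, 23.8, 21.6 and 16.8 CPM in WT libraries. Its groups did not overlap, with a log2 fold change of -1.53 ± 0.21 (adjusted p = 0.00539), and it was the only called gene of 14 inflammatory cytokines tested in the pooled fit. The median of that list was 0.03 pooled, 0.54 in the Il1f5 line and -1.45 in the Il1f9 line. Mmp7, which encodes matrilysin, had 0.813, 0.946, 1.13, 1.93 and 1.77 CPM in the libraries labelled KO, against 2.41, 2.45, 2.73, 12.3 and 6.49 CPM in WT libraries. The groups did not overlap, and both Il1f9 WT libraries were above all others (log2 fold change -1.81 ± 0.26, adjusted p = 0.00608).

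Of 19 epithelial antimicrobial proteins, 4 rose, 3 fell and 12 did not pass, and the shared ones split by direction. In the Il1f5 line 3 were called higher and 3 lower, in the Il1f9 line 4 higher and 7 lower. The pooled fit called 2.73% of all genes tested higher and 3.52% lower. Reg3g, a lectin that kills Gram-positive bacteria, had 345, 311, 456, 856 and 279 CPM in the libraries labelled KO, against 778, 991, 1342, 3104 and 1748 CPM in WT libraries. The libraries overlapped across lines, since Il1f9 KO 1 exceeded Il1f5 WT 1, and its log2 fold change was -1.73 ± 0.32 (adjusted p = 0.016), shared in 1 of the 10 fits that left out 1 library. Duoxa2, the maturation factor of the epithelial oxidase Duox2, had 93.2 to 119 CPM in libraries labelled KO and 135 to 185 CPM in WT libraries (log2 fold change -0.59 ± 0.09, adjusted p = 0.00942). Duox2 itself had a log2 fold change of -0.57 ± 0.16 that was not called (adjusted p = 0.0639).

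Calhm6, an ion channel gene of macrophages, had 0.65, 0.747, 1.35, 1.81 and 1.06 CPM in the libraries labelled KO, against 7.18, 6.5, 9.61, 6.98 and 4.68 CPM in WT libraries. There was no overlap (log2 fold change -2.65 ± 0.31, adjusted p = 0.00262). Ly6i, a member of the Ly6 surface protein family with close copies nearby, had 0.249 to 1.41 CPM in libraries labelled KO and 4.29 to 11.02 CPM in WT libraries (log2 fold change -3.36 ± 0.49, adjusted p = 0.00719). Ccr2, the receptor that brings monocytes into tissue, had 7.8 to 17.99 CPM in libraries labelled KO and 21.9 to 60.2 CPM in WT libraries. The fall of Ccr2 was steeper in the Il1f9 line, -0.63 in the Il1f5 line and -2.35 in the Il1f9 line (difference adjusted p = 0.0032), and its pooled call (log2 fold change -1.31 ± 0.32, adjusted p = 0.0414) was lost in 7 of the 10 fits that left out 1 library. Macrophage and monocyte markers were lower with these genes in the Il1f9 line. Their summed level was 402 to 490 CPM in Il1f9 KO libraries against 1366 to 1658 CPM in Il1f9 WT libraries, and 698 to 848 CPM in libraries labelled Il1f5 KO against 678 to 769 CPM in Il1f5 WT libraries. The part of these cells in the falls of Nos2, Tnf, Calhm6 and Ccr2 was not tested.

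Genes of the NF-kappa-B pathway were gathered into a list after the calls were seen, so its counts describe and do not test. Of 38 genes, 12 fell and 0 rose in the pooled fit, and 10 fell in both lines (Rel, Tifa, Nod1, Myd88, Irak1, Tirap, Tnfrsf1b, Tlr9, Malt1 and Bcl3), while 17 of the 38 differed between lines. In the Il1f5 line 11 were called lower and 2 higher, in the Il1f9 line 26 lower and 1 higher. Of all genes tested, 3.52% fell in the pooled fit, 1.59% fell in both lines and 24.8% differed between lines. Of the 10, Rel, Tifa, Nod1 and Tnfrsf1b stayed shared in all 10 fits that left out 1 library, Bcl3 in 7, Myd88, Tirap and Tlr9 in 3, Malt1 in 1 and Irak1 in 0. Rel, a subunit of NF-kappa-B itself, had 19.2, 19.1, 22.5, 21.2 and 19.6 CPM in the libraries labelled KO, against 30.6, 29.1, 30.2, 35.95 and 33.2 CPM in WT libraries. Tifa, an adaptor that relays bacterial heptose signals, had 91.4, 103, 78.8, 65.3 and 67.96 CPM in the libraries labelled KO, against 229.5, 191, 204, 198 and 188 CPM in WT libraries. For both genes the 5 libraries labelled KO were below the 5 WT libraries, and the log2 fold changes were -0.64 ± 0.08 and -1.33 ± 0.102. Myd88, the adaptor shared by IL-1 family receptors and Toll-like receptors, had 36.99 to 49.8 CPM in libraries labelled KO and 50.9 to 61.7 CPM in WT libraries and a log2 fold change of -0.34 ± 0.07 (adjusted p = 0.0252). Tnfrsf1b, a receptor of Tnf, had a log2 fold change of -1.06 ± 0.09 (adjusted p = 0.000776). Of the IL-36 axis itself, 0 of 5 genes tested were shared, and the receptor gene Il1rl2 had 6.72, 8.67, 6.94, 3.14 and 3.4 CPM in the libraries labelled KO, against 3.75, 3.93, 3.33, 4.67 and 7.24 CPM in WT libraries (log2 fold change 0.28 ± 0.34, adjusted p = 0.653).

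Hspa5 (ENSMUSG00000026864, chromosome 2, 34771970 to 34777547), the main chaperone of the endoplasmic reticulum, had 443, 509.9, 439, 607 and 656 CPM in the libraries labelled KO, against 921, 939, 890.4, 946 and 999 CPM in WT libraries. No library labelled KO reached the lowest WT library (log2 fold change -0.84 ± 0.09, adjusted p = 0.00246). Of 41 genes of endoplasmic reticulum folding and translocation, a list made after the calls were seen, 12 fell, 0 rose, 29 did not pass and 7 fell in both lines, while 17 differed between lines. In the Il1f5 line 24 were called lower and 0 higher, in the Il1f9 line 11 lower and 3 higher. The shares over all genes tested were 3.52% for a pooled fall, 1.59% for a fall in both lines and 24.8% for a difference. Examples of the 7 were Hyou1, a partner of Hspa5 (-0.81 ± 0.08), Uggt1, which checks glycoprotein folding (-0.59 ± 0.06), and Sec61a1, the channel that passes proteins into the endoplasmic reticulum (-0.697 ± 0.07). Xbp1, a transcription factor of the unfolded protein response, had 196 to 246 CPM in libraries labelled KO and 279 to 323 CPM in WT libraries (log2 fold change -0.46 ± 0.09, adjusted p = 0.0166). Its pooled call was lost without Il1f9 WT 1 and without Il1f9 KO 1, and it stayed shared in 4 of the 10 fits that left out 1 library. Hk2, which traps glucose in cells, had 350.3, 354, 378, 221 and 308 CPM in the libraries labelled KO, against 573, 619, 643, 508 and 579 CPM in WT libraries. Its log2 fold change was -0.87 ± 0.11 (adjusted p = 0.00313), and Hif1a, the oxygen-sensing factor, had -0.65 ± 0.09 (adjusted p = 0.006). These were the only calls among 26 glycolysis and hypoxia genes.

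Among epithelial genes that fell, Ms4a12, a marker of absorptive colonocytes, had 15.98, 12.5, 14.8, 15.1 and 20.3 CPM in the libraries labelled KO, against 33.1, 27.4, 24.1, 34.1 and 34.96 CPM in WT libraries. Its change was nearly equal in both lines, -0.97 in the Il1f5 line and -0.96 in the Il1f9 line (adjusted p = 0.00332). Ces2f, a carboxylesterase with close copies, had 1.19, 0.697, 0.789, 0.121 and 0.456 CPM in the libraries labelled KO, against 9.43, 6.19, 4.57, 3.39 and 1.96 CPM in WT libraries. Cyp3a44, a cytochrome P450 gene with close copies, had 0 to 1.57 CPM in libraries labelled KO and 2.31 to 6.32 CPM in WT libraries, and its log2 fold change of -3.16 ± 0.51 moved to -3.82 without Il1f9 KO 1. Ephb2, a receptor that positions crypt cells, had a log2 fold change of -0.51 ± 0.11 (adjusted p = 0.0299). It kept its pooled call in 4 of the 10 fits that left out 1 library and stayed shared in 1 of the 10. Aen, a p53-induced nuclease, had 23.8 to 32.6 CPM in libraries labelled KO and 38.2 to 47.0 CPM in WT libraries (-0.603 ± 0.09, adjusted p = 0.0084). Tnfsf13os is annotated as an antisense transcript, and since the libraries do not keep strand its reads cannot be assigned to a strand. It had 1.25, 0.946, 0.395, 0.784 and 0.861 CPM in the libraries labelled KO, against 5.25, 5.15, 3.55, 5.19 and 5.79 CPM in WT libraries, with no overlap (log2 fold change -2.54 ± 0.27, adjusted p = 0.0021).

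The Clca genes, a family of secreted proteins first named as chloride channel regulators, sit side by side on chromosome 3 and were called in both directions. The family list was added after the calls were seen. Of 8 genes, Clca1 and Clca2 rose and Clca3a2, Clca4b and Clca4c-ps fell in both lines. Clca1 (ENSMUSG00000028255, chromosome 3, 145003817 to 145032776), a mucus-processing protease of goblet cells, had 5846, 6095, 2892, 2328 and 3557 CPM in the libraries labelled KO, against 1446, 1776, 1449, 657 and 620.0 CPM in WT libraries. The groups were apart, with a log2 fold change of 1.88 ± 0.23 (adjusted p = 0.00296), 1.67 in the Il1f5 line and 2.204 in the Il1f9 line. Clca4b (ENSMUSG00000074195, chromosome 3, 144910921 to 144932529) had 252, 317, 218, 87.5 and 238 CPM in the libraries labelled KO, against 1353, 1075, 1156, 1363 and 620.4 CPM in WT libraries. It fell by 2.35 ± 0.299 on the log2 scale (adjusted p = 0.00396), -2.19 in the Il1f5 line and -2.61 in the Il1f9 line. Clca3a2 had 5.73 to 8.29 CPM in libraries labelled KO and 16.7 to 32.3 CPM in WT libraries (log2 fold change -1.58 ± 0.17). Clca2, at 0.733 to 1.46 CPM in libraries labelled KO and 0.103 to 0.552 CPM in WT libraries, kept its pooled call in 4 of the 10 fits that left out 1 library. Clca2 stayed shared in 1 of the 10. Members of the family are similar in sequence, and reads could be split among the Clca4 and Clca3 copies.

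These clusters made the stretch of chromosome 3 from 140 to 150 Mb the window with the largest share of shared genes among 217 windows of 10 Mb, a survey made after the calls were seen. It held 9 shared genes of 50 tested (18%), namely Gbp2, Gbp5, Gbp7, 5 Clca genes and Ddah1. Within 1 Mb of the Il1f9 to Il1f5 interval on chromosome 2, 0 of 35 genes tested were shared, within 5 Mb 4 of 143 (2.80%) and within 10 Mb 4 of 258 (1.55%). Over all genes tested 2.51% were shared. The pooled fit called 8.39% within 5 Mb and 5.43% within 10 Mb, against 6.25% over all genes tested. Of genes within 1 Mb, Tor4a, Tmem203, Rnf208 and the targeted gene Il1f5 were called in the pooled fit (11.4%). The first 3 had log2 fold changes of -0.301 ± 0.07, 0.6004 ± 0.15 and 0.83 ± 0.17, and each lost its call in at least 4 of the 10 fits that left out 1 library.

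Outside the immunoglobulin segments, the largest shared rise belonged to Ang4 (ENSMUSG00000060615, chromosome 14, 51763878 to 51773590), an antimicrobial ribonuclease of Paneth and goblet cells. It had 748, 991, 399, 207 and 509 CPM in the libraries labelled KO, against 23.6, 35.5, 40.9, 15.2 and 10.9 CPM in WT libraries. The lowest library labelled KO was Il1f9 KO 1, and it was still above the highest WT library. Its log2 fold change was 4.56 ± 0.35 (adjusted p = 0.000397), 4.42 in the Il1f5 line and 4.78 in the Il1f9 line, and angiogenin genes have close copies. Retnlb, a goblet cell protein that acts on gut bacteria, had 648, 723, 374, 600.1 and 523 CPM in the libraries labelled KO, against 275, 289.8, 287, 265 and 214 CPM in WT libraries (log2 fold change 1.11 ± 0.16, adjusted p = 0.00719). The intelectin gene Itln1, which goblet cells express, rose in the pooled fit by 4.69 ± 0.62 on the log2 scale (adjusted p = 0.00492) but was not called in each line. It had 23.9, 63.9, 11.6, 6.39 and 17.3 CPM in the libraries labelled KO, against 0.268, 0.981, 2.01, 0.668 and 0.503 CPM in WT libraries. Zg16, another goblet cell lectin, had 1976 to 2567 CPM in libraries labelled KO and 952 to 1807 CPM in WT libraries, with a log2 fold change of 0.71 ± 0.14. It kept its pooled call in 6 of the 10 fits that left out 1 library and stayed shared in 5 of the 10.

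Of 16 markers of goblet cells, 4 were called higher in the pooled fit (Fcgbp, Clca1, Zg16 and Tff3), 0 lower and 12 in neither direction. Over all genes tested 2.73% were called higher. Of the 4, Clca1 and Zg16 were shared. In the Il1f5 line 5 markers were called higher and 3 lower, in the Il1f9 line 5 higher and 1 lower, and 6 differed between lines. The median was 0.15 pooled, 0.11 in the Il1f5 line and 0.50 in the Il1f9 line. Muc2, the main mucin, had 9182, 6338, 6055, 6206 and 6409 CPM in the libraries labelled KO, against 5927, 7554, 6467, 3919 and 4707 CPM in WT libraries. The libraries overlapped, and its log2 fold change was 0.29 ± 0.16 (adjusted p = 0.283). Of 26 absorptive colonocyte markers, Guca2a, Cdhr5 and Slc9a2 rose in both lines and Ms4a12 fell. The pooled fit did not call 22 of the 26, and 11 differed between lines. In the Il1f5 line 4 were called higher and 5 lower, in the Il1f9 line 11 higher and 2 lower. Their median was 0.083 pooled, -0.048 in the Il1f5 line and 0.50 in the Il1f9 line. Of all genes tested, 0.924% rose and 1.59% fell in both lines. Ms4a12 stayed shared in all 10 fits that left out 1 library, Guca2a in 9, Cdhr5 in 4 and Slc9a2 in 0. Guca2a, the hormone guanylin, had 768, 1187, 852, 1164 and 1122 CPM in the libraries labelled KO, against 536, 568, 584, 668 and 498 CPM in WT libraries (log2 fold change 0.83 ± 0.14, adjusted p = 0.00969). Cdhr5, a cadherin of the brush border, had a log2 fold change of 0.48 ± 0.099 and Slc9a2, a sodium-proton exchanger, one of 0.42 ± 0.096. Cldn4, a tight junction claudin, had 107 to 173 CPM in libraries labelled KO and 67.6 to 89.4 CPM in WT libraries (log2 fold change 0.71 ± 0.11, adjusted p = 0.00826). The xenobiotic enzymes Sult1a1, a sulfotransferase, and Cyp2s1, a cytochrome P450, rose by 0.698 ± 0.13 and 0.63 ± 0.0996 on the log2 scale.

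**Figure D3:**
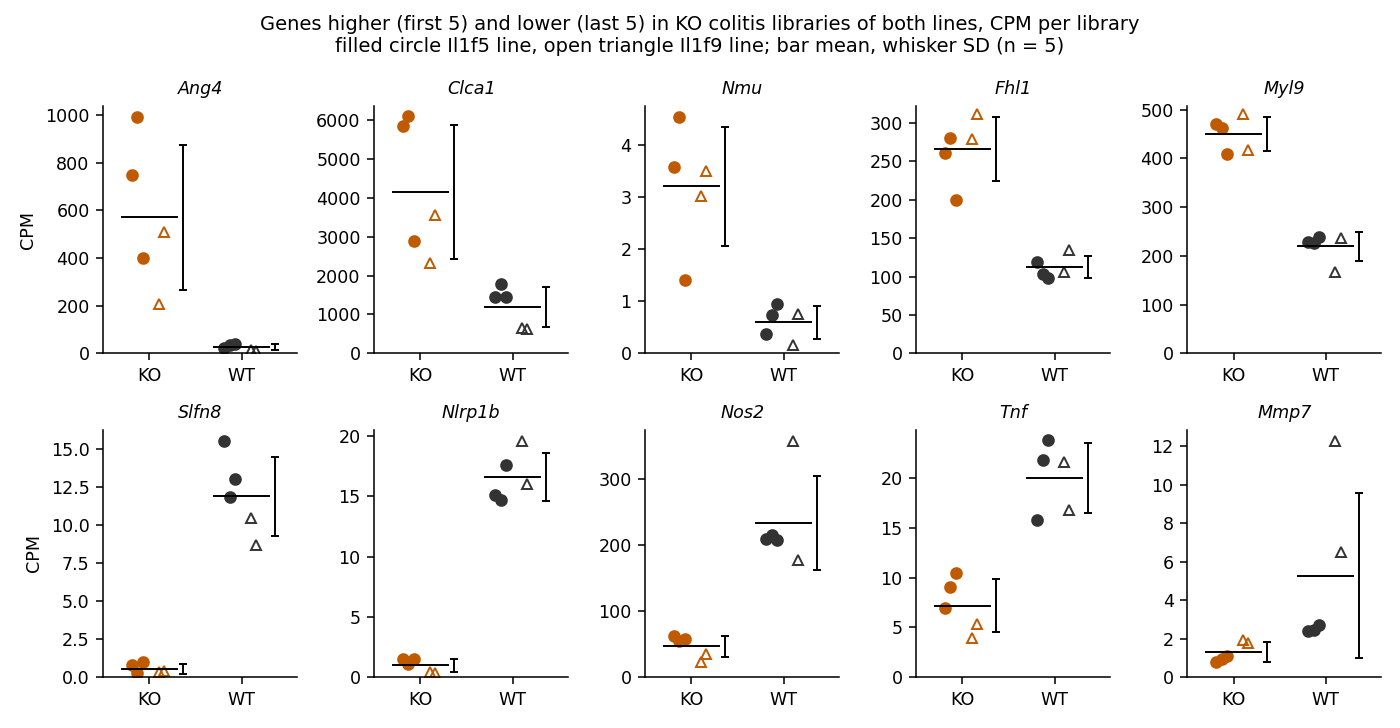
CPM per library of 5 genes that rose (Ang4, Clca1, Nmu, Fhl1, Myl9) and 5 that fell (Slfn8, Nlrp1b, Nos2, Tnf, Mmp7) in both lines, each on its own axis from 0, with libraries labelled KO left and WT right. Filled circles are the Il1f5 line, open triangles the Il1f9 line, bars means and whiskers SD of 5 libraries, and in each panel all 5 libraries labelled KO lie on one side of the 5 WT libraries.

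Smooth muscle genes rose in both lines with similar medians, and 2 of 16 markers were called for a difference between lines. Over all genes tested, 2.73% rose in the pooled fit and 0.924% in both lines. Of 16 markers, 12 rose, 0 fell and 4 did not pass, and 8 rose in both lines (Myh11, Acta2, Des, Mylk, Cnn1, Myl9, Smtn and Synpo2). Their median was 0.92 pooled, 0.84 in the Il1f5 line and 0.95 in the Il1f9 line, and all 16 were positive in both lines, a state found in 22.1% of all tested genes. The count of 8 was 3 without Il1f9 KO 1 and 5 without Il1f5 WT 1 or without Il1f5 WT 2.

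Myl9 (ENSMUSG00000067818, chromosome 2, 156775420 to 156781658), the regulatory light chain of smooth muscle myosin, had 470.0, 462, 409, 492 and 417 CPM in the libraries labelled KO, against 228, 227, 238, 167 and 237 CPM in WT libraries. The groups were apart and narrow within, Il1f9 WT 1 being the lowest library, with a log2 fold change of 1.04 ± 0.11 (adjusted p = 0.00177), 0.95 in the Il1f5 line and 1.17 in the Il1f9 line. Myh11, the myosin heavy chain, had 1783, 1251, 1168, 1328 and 1123 CPM in the libraries labelled KO, against 617, 570.0, 742, 460.2 and 816 CPM in WT libraries. Il1f9 WT 2 was the highest WT library and still below every library labelled KO (log2 fold change 1.05 ± 0.18, adjusted p = 0.0114). Synpo2, an actin-bundling protein, had 169.9, 166, 135, 185 and 151 CPM in the libraries labelled KO, against 58.6, 51.9, 67.8, 61.5 and 99.1 CPM in WT libraries (log2 fold change 1.27 ± 0.15, adjusted p = 0.00262). Actg2, the enteric smooth muscle actin, rose in the pooled fit (0.998 ± 0.26, adjusted p = 0.0481) and was called in 1 of the 10 fits that left out 1 library. Tagln was not called, at 0.59 ± 0.23 (adjusted p = 0.151).

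Further contractile and actin-binding genes followed, in a list added after the calls were seen, of which 16 of 24 rose, 0 fell and 12 rose in both lines. The shares over all genes tested were 2.73% for a pooled rise and 0.924% for a rise in both lines. Fhl1 (ENSMUSG00000023092, chromosome X, 56731787 to 56793346), a LIM protein of muscle, had 261, 280.1, 199, 279 and 312 CPM in the libraries labelled KO, against 119, 103, 98.5, 106 and 135 CPM in WT libraries. No WT library reached the lowest library labelled KO, and the log2 fold change was 1.24 ± 0.11 (adjusted p = 0.000776), 1.21 in the Il1f5 line and 1.29 in the Il1f9 line. Tpm2, a tropomyosin, rose by 0.99 ± 0.14, Synm, an intermediate filament protein, by 1.22 ± 0.19 and Pdlim3, a Z-disc protein, by 1.13 ± 0.13 on the log2 scale. Summed smooth muscle markers ran from 4534 to 6332 CPM in libraries labelled KO, against 2100.1 to 3513 CPM in WT libraries, with no marker at 0. Whether the pieces differed in their share of muscle wall was not tested. Enteric neuron and glia markers had medians of 1.26 in the Il1f5 line and 0.11 in the Il1f9 line, with 3 of 20 called in the pooled fit and 0 shared, and fibroblast markers had medians of 0.72 and -0.45 in the same order, with Clec3b the single shared gene of 18.

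Of 18 B and plasma cell markers, Igha, Mzb1, Igkc and Jchain rose in the pooled fit and Xbp1, which other secretory cells also use, fell. That fit called 2.73% of all genes tested higher and 3.52% lower. Igha, the constant region of IgA, had 1889, 2607, 3036, 3374 and 3425 CPM in the libraries labelled KO, against 1316, 917, 1129, 989 and 1870.2 CPM in WT libraries. Il1f9 WT 2 came closest to the libraries labelled KO without overlap (log2 fold change 1.198 ± 0.19, adjusted p = 0.00928). Jchain, the joining chain of IgA, had 272, 415, 494, 667 and 762 CPM in the libraries labelled KO, against 273, 186, 201.5, 131 and 281 CPM in WT libraries, with overlap in the Il1f5 line. Mzb1, a chaperone of antibody secretion, had a log2 fold change of 1.11 ± 0.23 (adjusted p = 0.0221). It kept its pooled call in 6 of the 10 fits that left out 1 library and stayed shared in 3 of the 10. The summed list ran from 3359 to 6212 CPM in libraries labelled KO, against 2076 to 3604 CPM in WT libraries, and the part of plasma cell number in these rises was not tested.

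The rest of the shared rises were scattered over functions. Nmu, the neuropeptide neuromedin U, had 3.58, 4.53, 1.41, 3.01 and 3.5 CPM in the libraries labelled KO, against 0.375, 0.736, 0.94, 0.154 and 0.755 CPM in WT libraries (log2 fold change 2.43 ± 0.44, adjusted p = 0.0138). Slc6a4, the serotonin transporter, had 7.69, 10.8, 9.92, 5.37 and 6.33 CPM in the libraries labelled KO, against 5.57, 3.37, 3.38, 2.77 and 2.36 CPM in WT libraries. Il1f9 KO 1 was below Il1f5 WT 1, and within each line KO and WT were apart (log2 fold change 1.197 ± 0.18, adjusted p = 0.00791). Slc30a10, a manganese exporter, had 47.4 to 103 CPM in libraries labelled KO and 22.3 to 35.5 CPM in WT libraries, and Clps, a colipase, had 5.91 to 17.03 CPM in libraries labelled KO and 1.46 to 4.98 CPM in WT libraries. Fndc5, the precursor of irisin, rose by 1.47 ± 0.22, Ank1, an ankyrin of membrane skeletons, by 1.37 ± 0.23, Shisal1 by 1.47 ± 0.19 and Ctxn3 by 1.35 ± 0.22 on the log2 scale. Krt14, a keratin of squamous epithelium such as that of the anus, had 0.62 to 2.59 CPM in libraries labelled KO and 0.245 to 0.411 CPM in WT libraries, and of 19 keratins and squamous genes it was the single shared one. Small rises were called for Npas2, a clock gene (0.48 ± 0.11), Jund, a subunit of AP-1 (0.39 ± 0.08), and Acadm, an enzyme of fatty acid oxidation (0.45 ± 0.097). All 3 lost the pooled call in at least 4 of the 10 fits that left out 1 library. Npas2 and Acadm stayed shared in 2 of the 10 and Jund in 4.

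A pseudogene, Gm14719 (ENSMUSG00000082192, chromosome X, 49660960 to 49661299), was named after its values were seen because it was also called in the tumours. It had 15.8, 9.31, 8.46, 15.2 and 13.1 CPM in the libraries labelled KO, against 1.18, 1.78, 1.58, 2.00 and 1.91 CPM in WT libraries. Its log2 fold change was 2.87 ± 0.21 (adjusted p = 0.000397), and reads of a near-identical copy elsewhere could be counted there. Gm4366, a predicted gene also named after its values were seen, had 99.2, 70.4, 95.01, 116 and 109.5 CPM in the libraries labelled KO, against 30.5, 32.9, 29.95, 33.1 and 25.2 CPM in WT libraries (1.68 ± 0.13, adjusted p = 0.000397). Both rose alike in the lines, 2.89 in the Il1f5 line and 2.85 in the Il1f9 line for Gm14719 and 1.503 in the Il1f5 line and 1.95 in the Il1f9 line for Gm4366.

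Several lists whose effect differed between lines held few or no shared genes. The difference between lines was called for 4535 genes (24.8%), and for 1961 without Il1f9 WT 2, 1962 without Il1f9 KO 2 and 2846 without Il1f5 WT 2. Of 19 neutrophil markers, 17 differed between lines, with medians of 1.12 in the Il1f5 line and -3.70 in the Il1f9 line, and 0 were called in the pooled fit. In the Il1f5 line alone 2 of them were called, and in the Il1f9 line 17. S100a8, a calcium-binding protein of neutrophils, had 51.8, 209, 145, 17.4 and 8.51 CPM in the libraries labelled KO, against 25.3, 21.6, 58.4, 407 and 214 CPM in WT libraries. The highest libraries were those of Il1f9 WT and the lowest those of Il1f9 KO, while Il1f5 KO 2 and Il1f5 KO 3 were above all Il1f5 WT libraries. Of 20 macrophage and monocyte markers 18 differed between lines, of 32 collagens and matrix proteins 26, of 16 endothelial markers 15, of 25 respiratory chain genes 25 and of 19 heat shock chaperones 16. The shared counts of these 5 lists were 1, 0, 0, 0 and 1. Cxcl12, a chemokine of fibroblasts, had 129, 124, 122, 61.98 and 58.3 CPM in the libraries labelled KO, against 73.04, 76.1, 85.2, 130.0 and 159 CPM in WT libraries and thus changed by 0.68 in the Il1f5 line and -1.27 in the Il1f9 line (difference adjusted p = 0.000291). Arg1, Cd33, C5ar1, Igsf6 and Lrrc25, genes of myeloid cells, were the others with the smallest p for this difference. The 10 libraries all had at most 0.30 CPM of Xist and at least 59.1 CPM of the Y-linked gene Ddx3y, and no sex-linked gene tested was called.

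**Figure D4:**
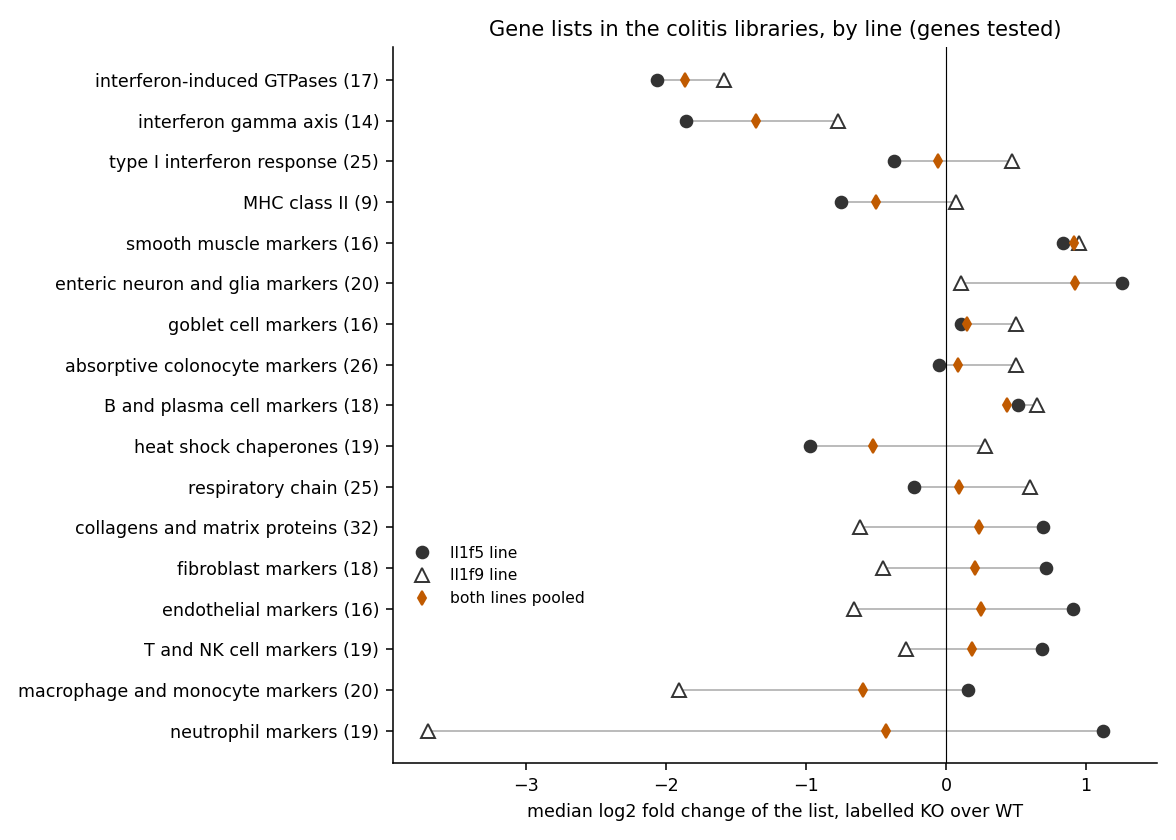
Median log2 fold change of KO over WT for 17 gene lists, with the number of genes tested in brackets, in the Il1f5 line (circles), the Il1f9 line (triangles) and both pooled (diamonds). GTPases lie left of 0 and smooth muscle markers right of 0 in both lines, while neutrophil markers lie at 1.12 and -3.70.

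Few genes were called in the tumours of the same lines. With 2 tumour libraries in each group of a line, a missing call does not show a missing effect. The pooled KO effect over 4 KO and 4 WT tumour libraries called 3 genes higher (0.0168%) and 0 lower of 17859 tested with edgeR, with 1807 at an unadjusted p under 0.05, and DESeq2 called 33 higher and 30 lower. Of the 169 genes that were shared and higher in colitis, 161 were tested in tumours, where 107 were positive and 54 negative with a median of 0.15 and 1 call, Gm14719. Of the 291 lower ones 282 were tested, 109 positive and 173 negative with a median of -0.063 and 0 calls. The effect in colitis minus that in tumours was called for 540 of 19514 genes (2.77%), among them 33 of the shared higher and 93 of the shared lower genes. Shared genes were chosen by colitis values that enter this contrast, so the choice itself raises their share. The counts do not show that the effect is limited to colitis.

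Ang4 had 111, 127, 321 and 91.97 CPM in tumours labelled KO and 133, 233, 67.9 and 65.7 CPM in WT tumours. Its tumour groups overlapped (log2 fold change 0.501 ± 0.62), and the colitis effect was larger by 4.09 ± 0.598 (adjusted p = 0.0124). Slfn8 had 0.546, 0.411, 1.79 and 5.34 CPM in tumours labelled KO and 0.514, 0.196, 5.43 and 3.54 CPM in WT tumours, and the colitis effect minus the tumour effect was -4.52 ± 0.57 (adjusted p = 0.00188). All 4 tumours of the Il1f9 line were above all 4 of the Il1f5 line. Gbp2 had 121, 173, 166 and 1712 CPM in tumours labelled KO and 141, 81.7, 517 and 81.3 CPM in WT tumours, with 1 KO tumour far above the rest. Its tumour fold change was 1.03 ± 0.88 (adjusted p = 0.684), and the difference between tissues was not called (adjusted p = 0.0825). Gm14719 was the exception, with 35.2, 26.5, 30.4 and 13.1 CPM in tumours labelled KO and 2.06, 2.4, 2.38 and 2.98 CPM in WT tumours. All 4 tumours labelled KO were above all 4 WT tumours, with a log2 fold change of 3.404 ± 0.31 (adjusted p = 0.00661).

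**Figure D5:**
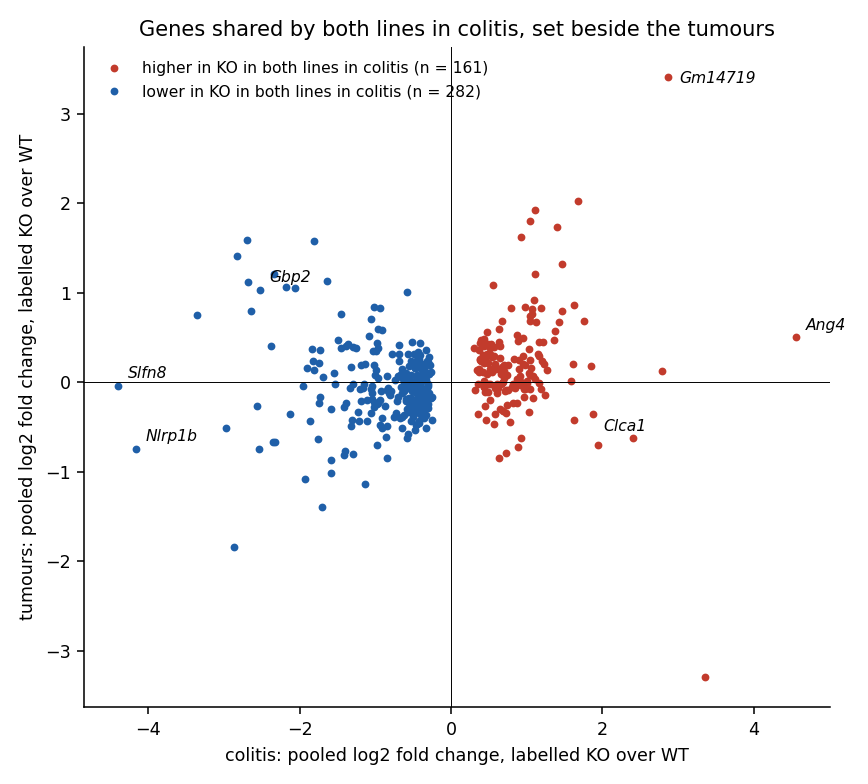
Pooled log2 fold change of KO over WT in tumours (vertical) against colitis (horizontal) for genes shared by both lines in colitis and tested in tumours, 161 higher (red) and 282 lower (blue). The points spread around 0 on the tumour axis for both colours, and Gm14719 stands at the upper right.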

How the data were processed

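RNA was measured in 18 libraries, of which the 10 colitis libraries are the main subject. Per the labels' protocols, poly(A) RNA was selected from total RNA, the second strand was made with a non-directional kit and libraries were sequenced as paired reads, so strand is not kept. The submitters' processing notes name Trim Galore 0.6.4, HISAT2 2.0.5 and featureCounts 2.0.0, and they name no build of the genome. The authors deposited whole-number counts per gene, which entered all tests, and FPKM values, of which no test or printed level made use, and the 8 FPKM columns of the tumours were not read.

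Genes were filtered with filterByExpr and normalised by TMM, and CPM values are counts over the TMM-scaled library size. The knockout effect was tested with edgeR 4.0.16 (quasi-likelihood F test, robust) in R 4.3.3, with line as a covariate, and p-values were adjusted by Benjamini-Hochberg at 0.05 over all tested genes. Each line and the difference between lines came from a fit of 4 group means. DESeq2 1.42.0 was an alternative, and the procedure was tested on simulated data. No pair of libraries of the same group agreed within counting noise. Labels give no cultures or litters, and p-values measure the spread between libraries. The counting intervals and floors cover counting error only.

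The members and gene lists were chosen with earlier results of these data known, and 4 of the lists were added after these calls were seen. Genes named were the targeted genes, up to 12 shared genes in each direction with the largest effect in their weaker line (mean log2 CPM of at least 1, no overlap within a line, no predicted gene or receptor segment), up to 3 shared genes per list with the smallest p, the 6 genes with the smallest p for a difference between lines, and called genes within 1 Mb of the targeted genes. Other named genes illustrate lists or were picked after their values were seen. Alternatives were another scaling, no filter, a replicate block, other call rules and leaving out each library.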

Additional observations from a re-analysis of the deposited data

Results flagged for a closer look

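Single libraries stood apart in 7 of 130 groups of 5 values, and chance alone marks about 1 in 20. Il1f9 WT 1 was high for Il1f9, at 11.9 CPM, and for Nos2, at 357 CPM, and low for Myl9, at 167 CPM. Il1f5 WT 3 was low for Tnfsf13os, at 3.55 CPM. Il1f5 KO 3 was high for Gbp6, at 8.57 CPM, and Il1f5 KO 2 held the single count of Nlrp1a, at 0.0498 CPM. Il1f9 KO 2 was low for Tmem203, at 8.26 CPM.

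The knockout effect differed between lines for 4535 genes. As the effect in the Il1f9 line minus that in the Il1f5 line on the log2 scale, the difference was -5.42 for Il1f9 itself. Among genes that were shared it was -1.98 for Nlrp1b, -1.34 for Nos2, -1.72 for Ccr2, 0.37 for Jund and 0.59 for Sult1a1, so these moved the same way in both lines by unequal amounts. For genes of myeloid and stromal cells it was -1.94 for Cxcl12, -3.18 for Lrrc25, -3.75 for Cd33, -3.72 for Arg1, -3.49 for Igsf6 and -3.78 for C5ar1.

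The knockout effect also differed between colitis and tumours. As colitis minus tumour on the log2 scale, the difference was 4.09 for Ang4, 2.28 for Clca1, 1.38 for Fhl1 and 0.85 for Zg16. It was -4.52 for Slfn8, -3.76 for Nlrp1b, -4.16 for Ly6i, -2.52 for Ces2f and -3.37 for Calhm6. It was -1.63 for Tnf, -2.02 for Mmp7, -0.98 for Ephb2, -0.60 for Aen, -1.21 for Lrrc25 and -1.56 for Igsf6. The libraries labelled Il1f5 KO, the ones with Il1f5 reads, enter all of these values. The genes were named for their colitis values, which enter too, so large differences among them follow in part from that choice.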

How the results depend on the processing

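The pooled count of 1144 genes was 2489 with DESeq2, 3385 with lines weighted the same and 308 at a change of 1 or more on the log2 scale, and ran from 372 to 1641 when 1 library was left out. The 460 shared genes were 102 at that fold, 880 with an unadjusted p under 0.05 in each line and 1023 as genes of the same sign with no call for a difference, with a range of 157 to 471 over left-out libraries. Shared GTPases numbered 4 without a filter on low counts (2 to 12 over left-out libraries), and shared smooth muscle genes 3 to 9. Genes that differed between lines were 2234 at that fold, with a range of 1961 to 5844. The 3 tumour calls were 476 without a filter and 63 with DESeq2, with a range of 1 to 5.

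Equal replicate numbers did not pair KO and WT libraries, as the correlations of their deviations ran from -0.143 to -0.0022 in colitis. With a replicate block the pooled and the shared count were both 79, shared smooth muscle genes 3 and genes that differed between lines 2810.

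Of values for 65 named genes, 910 kept direction and side of the threshold, 113 lost the call, 8 gained one and 9 changed sign. Cxcl12 was 0.098, 0.15 and 0.17 without Il1f9 WT 2, KO 1 or KO 2. Cd33 was 0.16 and 0.18 without Il1f9 KO 1 or KO 2. C5ar1 was 0.045, 0.0057, 0.39 and 0.47 without Il1f9 WT 1, WT 2, KO 1 or KO 2. Over all left-out libraries the lowest values were -0.25 for Cxcl12, -0.80 for Cd33 and -0.56 for C5ar1. The cause was not tested. Leaving out an Il1f9 library leaves its group with 1, which is assumed to vary like the others, and genes under about 1 CPM have wide counting error.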
